A study of Mus musculus with 4 samples.

Results

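The genes described here are 10 components of the machinery that restrains Wnt signalling inside the cell and at its receptors: Axin1, Axin2, Apc, Gsk3b, Nkd1, Nkd2, Rnf43, Znrf3, Kremen1 and Tnfrsf19. They were taken by symbol (AXIN1, AXIN2, APC, GSK3B, NKD1, NKD2, RNF43, ZNRF3, KREMEN1 and TNFRSF19 in the capitals of the file) from an expression table of 29871 gene rows, and all 10 were found. RNA sequencing was done on adenomas of the mouse small intestine. The 2 control libraries came from animals labelled APC Min/+, which carry 1 truncated copy of the tumour suppressor Apc and are wild type for PAF. The other 2 libraries came from animals labelled PAF KO; APC Min/+, so the Min allele is shared by both groups, which differ by the knockout of PAF, taken here as the PCNA-associated factor. Age, strain, the design of the knockout allele and the number of animals behind a library are not stated in the labels, so p-values measure only the spread between these libraries. Nothing in the labels shows separate animals behind the controls, whose spread may be technical.

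Wnt signalling works by controlling how long beta-catenin lasts. Without Wnt, a destruction complex built on the scaffold Axin, with Apc and the kinase Gsk3b, marks beta-catenin for degradation; when Wnt binds Frizzled and Lrp receptors, Dishevelled takes Axin away from that task and beta-catenin enters the nucleus. Several of the brakes are themselves genes that beta-catenin switches on, so their transcripts are widely read as a gauge of pathway output: Axin2 rebuilds the destruction complex, Nkd1 binds Dishevelled, and the ubiquitin ligases Rnf43 and Znrf3 remove Frizzled from the surface of intestinal stem cells. In adenomas of Min mice the remaining Apc copy is typically lost, which leaves the pathway active.

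Some properties of the libraries bear on all values below. The PAF transcript, row 2810417H13Rik, read 17.9 and 17.8 FPKM (fragments scaled by transcript length and by the number mapped in the library) in control adenomas, 4.13 in knockout library 1 and 11.4 in knockout library 2, or 23.2% and 63.9% of the control mean. A transcript level of 63.9% does not by itself bear out the knockout label of library 2; which part of the gene was altered is not stated in the labels, and both libraries are called here by their labels. Knockout library 2 also stood apart from the rest. Xist was at 46.4 FPKM there and at most 0.0086 elsewhere, and the Y-linked Eif2s3y was listed at 0 there and at 26.0 to 31.7 FPKM elsewhere. The knockout group thus mixed the sexes and its libraries held RNA of different animals. No control had the female pattern of library 2, so sex and genotype cannot be fully told apart in the comparison. All 8 epithelium markers were detected in every library, Krt19 and Krt8 being the most abundant. They summed to 7028 and 6907 FPKM in control adenomas and 7687 and 8065 in knockout adenomas. These markers went both ways. Krt19 read 1855 and 1988 FPKM in control adenomas and 2715 and 2372 in knockout adenomas, while Cdh1 read 334 and 325 against 283 and 289. No marker of the other cell types was listed at 0 in any library. The 10 enterocyte markers, led by Apoa1 and Apoa4, summed to 8407 and 8996 FPKM in control adenomas, 13109 in knockout library 1 and 1453 in knockout library 2. Members went both ways in library 1: Apoa4 read 3251 FPKM there against 948 and 972, while Anpep read 259 against 708 and 720, a gene named after its values were seen. The 8 smooth muscle markers, led by Tagln and Actg2, summed to 147 in each control, 148 in library 1 and 579 in library 2. The level sum in library 1 held markers that went both ways. Tagln read 53.4 FPKM there against 44.9 and 46.1 in control adenomas, while Actg2 read 26.5 against 43.2 and 41.7. Sums for fibroblasts (8 markers, led by Dcn and Col1a1) were 278 and 281 against 357 and 708 FPKM. Those for endothelium (6 markers, led by Cdh5 and Pecam1) were 55.3 and 56.6 against 69.4 and 79.1 FPKM. Cdh5 went against its sum, at 26.3 and 27.6 against 25.9 and 12.4 FPKM, while Pecam1 read 12.3 and 12.4 against 16.2 and 29.5. Leukocyte sums (8 markers, led by Lyz2 and S100a8) were 93.2 and 94.9 against 147 and 259 FPKM. Leukocyte markers also went both ways. S100a8 read 6.59 and 13.2 against 63.1 and 51.0 FPKM, and Cd68 read 16.6 and 19.1 against 12.1 and 10.5.

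Of the 10 genes, 9 read lower in both PAF knockout libraries than in both controls, and Nkd2, a transcript close to the detection limit, read higher in both. The 9 were the ones whose mean over the libraries reached 1 FPKM, and each also had a mean above that level in either group alone. Over all 13716 rows that passed the same filter, 30.2% had both knockout libraries below both controls. The lowest shares of the control level were those of Axin2 and Nkd1, followed by Znrf3, Tnfrsf19 and Rnf43, while Apc and Gsk3b differed least. The median log2 fold change of the 9 genes was -1.05, beside 0.0035 over all tested rows. In tissue libraries of this kind, fewer cells of a type and less RNA per cell cannot be told apart. The part of the marker shifts given above in these results was not tested. With each library centred on its epithelium markers, the log2 fold change was -1.76 for Axin2, -1.77 for Nkd1, -1.07 for Rnf43 and -1.19 for Znrf3. It was -1.13 for Tnfrsf19, -0.75 for Kremen1, -0.67 for Axin1, -0.26 for Gsk3b and -0.13 for Apc. This centring adds the same constant to the log2 fold change of every gene, so it cannot alter the order of the genes or the gaps between them. It uses the epithelium markers only and cannot correct for shifts among epithelial cell types, such as that of the enterocyte markers.

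None of the 9 passed the test over all genes. With limma on log2(FPKM + 1) and Benjamini-Hochberg adjustment over the 13716 rows, 0 of 9 were called at an adjusted p under 0.05, beside 0.0729% of all rows; the adjusted p-values ranged from 0.235 to 0.743. At an unadjusted p under 0.05, 7 of 9 were lower, beside 9.76% of all rows, and 0 were higher, beside 3.44%. A log2 fold change under -1 was seen for 5 of the 9 and for 5.85% of all rows. The knockout libraries lay a median log2 distance of 0.49 apart over all rows and the controls 0.088, and limma pools the spread of both groups. With knockout library 1 left out limma called 7 of the 9 genes lower, beside 27.1% of all rows, and with knockout library 2 left out it also called 7, beside 14.4%. Each of those fits has a lone knockout library, which is assumed to vary like the controls.

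**Figure D1:**
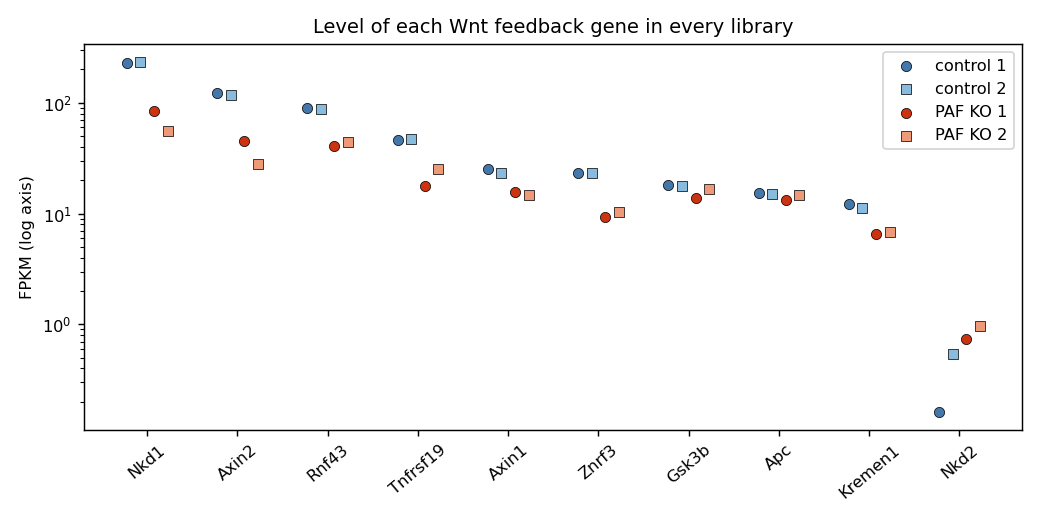
Level of the 10 genes in each library, in FPKM on a log axis, ordered by control mean; circles are replicate 1 and squares replicate 2 of each group, blue for control and red for PAF knockout. Both knockout points lie below both control points for every gene except Nkd2, and the gap is narrow for Apc and Gsk3b.

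Among the destruction complex genes, the scaffold Axin2 stood far from its relative Axin1. Axin2 read 122 and 118 FPKM in control adenomas, 44.9 in knockout library 1 and 27.9 in knockout library 2. The groups did not overlap, and the knockout libraries held 37.4% and 23.2% of the control mean, with library 2 the lower. The change on the log2 scale came to -1.73 (SE 0.287, limma adjusted p = 0.243, n = 2 per group), a value that only 1.99% of all tested rows lay below.

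Axin1, the scaffold present in most tissues whether or not Wnt is active, read 25.5 and 23.3 FPKM in control adenomas and 15.7 and 14.9 in knockout adenomas. Here both knockout libraries were nearly equal, at 64.4% and 60.9% of the control mean (log2 fold change -0.64, SE 0.156, n = 2 per group; limma adjusted p = 0.301). Within each library the ratio of Axin2 to Axin1 was 4.78 and 5.07 in control adenomas and 2.86 and 1.88 in knockout adenomas. Axin2 transcripts thus remained the more abundant form per length in all 4 libraries, by a smaller margin in knockout adenomas.

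The other destruction complex members differed little. Apc, the protein whose truncation both groups share, read 15.5 and 14.97 FPKM in control adenomas and 13.3 and 14.9 in knockout adenomas. Knockout library 2 lay just under the lower control (log2 fold change -0.11, SE 0.157, n = 2 per group; limma adjusted p = 0.743). FPKM of the whole gene does not tell the truncated allele from the intact copy. Gsk3b, the kinase that phosphorylates beta-catenin, read 18.3 and 17.9 FPKM in control adenomas and 13.9 and 16.6 in knockout adenomas (log2 fold change -0.24, SE 0.170, n = 2 per group; limma adjusted p = 0.561). For both genes the difference was of the order of the gap between the knockout libraries, which was 0.15 for Apc and 0.23 for Gsk3b on the log2 scale.

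Nkd1, a Dishevelled-binding inhibitor, was the most abundant of the 10 genes per length in every library. It read 228 and 236 FPKM in control adenomas, 84.0 in knockout library 1 and 55.7 in knockout library 2. These are 36.2% and 24.0% of the control mean, again with library 2 the lower and no overlap between groups. Its change on the log2 scale came to -1.75 (SE 0.267, limma adjusted p = 0.238, n = 2 per group).

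Nkd1 and Axin2 stood in nearly the same proportion in all 4 libraries. The ratio of Nkd1 to Axin2 was 1.87 and 1.99 in control adenomas and 1.87 and 1.997 in knockout adenomas, so it overlapped between groups while each gene on its own did not. Against Gsk3b, the ratio of Nkd1 was 12.5 and 13.2 in control adenomas and 6.03 and 3.36 in knockout adenomas. These pairs, and those given below, were chosen after values of the genes had been seen. With 2 libraries against 2, an exact permutation test of a ratio cannot give a two-sided p below 0.333.

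Nkd2, the relative of Nkd1 with the same binding partner, was listed at 0.162 and 0.539 FPKM in control adenomas and 0.732 and 0.976 in knockout adenomas. Its mean was below the filter and it was not in the main test. With no filter the limma fold change was 0.47 on the log2 scale, with SE 0.188 (n = 2 per group) and adjusted p = 0.468. From the estimated depth these levels correspond to about 8.56 fragments in the lowest library and 94 in the highest.

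**Figure D2:**
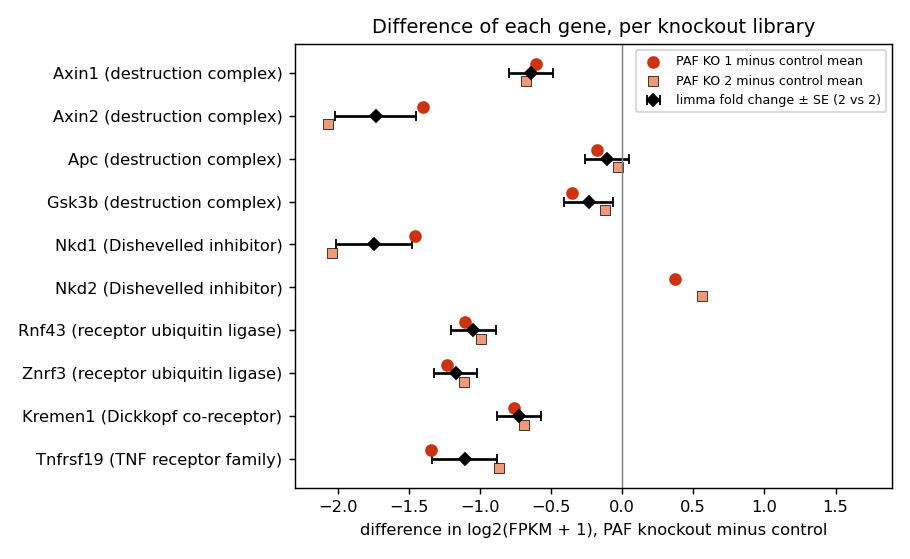
Difference in log2(FPKM + 1) from the control mean for each gene: circles are knockout library 1, squares knockout library 2, and diamonds with bars the limma fold change ± SE from 2 against 2 libraries. Axin2 and Nkd1 lie near -1.4 in library 1 and near -2.1 in library 2. Tnfrsf19 lies lower in library 1, as do Rnf43, Znrf3, Kremen1, Gsk3b and Apc by smaller gaps. Nkd2, which was below the filter and has no diamond, lies above 0.

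Promoter sequences are shown for 3 of the genes with log2 fold changes under -1: Axin2 and Nkd1, because of their near-constant proportion to each other, and the start site of Tnfrsf19 that held the only match. They are the 250 bases before the annotated start, read 5′ to 3′ along the gene, from RefSeq on GRCm38.p6, a different build from that of the expression table. Capitals mark a match to CTTTGAT or CTTTGAA on either strand, letters that TCF/LEF factors, the DNA-binding partners of beta-catenin, can bind. The 2 motifs differ in their last letter, so they cannot match at the same place on a strand.

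Axin2 chr11:108920099-108920348 (+ strand): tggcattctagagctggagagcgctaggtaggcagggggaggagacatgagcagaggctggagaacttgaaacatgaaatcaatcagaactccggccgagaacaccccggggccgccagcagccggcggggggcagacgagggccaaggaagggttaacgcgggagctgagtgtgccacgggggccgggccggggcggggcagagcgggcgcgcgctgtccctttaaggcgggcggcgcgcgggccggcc
Nkd1 chr8:88527383-88527632 (+ strand): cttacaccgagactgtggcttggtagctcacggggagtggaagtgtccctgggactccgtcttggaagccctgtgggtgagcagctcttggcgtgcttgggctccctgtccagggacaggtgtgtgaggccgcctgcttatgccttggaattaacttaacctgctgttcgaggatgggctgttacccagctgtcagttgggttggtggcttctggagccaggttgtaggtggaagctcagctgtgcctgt
Tnfrsf19 chr14:61037988-61038237 (- strand): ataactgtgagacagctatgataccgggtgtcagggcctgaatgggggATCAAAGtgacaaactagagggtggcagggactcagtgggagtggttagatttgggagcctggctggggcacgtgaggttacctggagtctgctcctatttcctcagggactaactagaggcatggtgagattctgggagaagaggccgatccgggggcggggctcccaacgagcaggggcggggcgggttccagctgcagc

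Windows were found for 6 of the 10 genes, 8 start sites in all: Axin2, Gsk3b, Nkd1, Nkd2, Rnf43 and Tnfrsf19. Apc, Axin1, Kremen1 and Znrf3 had none in the table. Of the 8 windows, taken over 300 bases from 250 before to 50 after the start, 1 held a match, beside 8.65% of 32851 windows of that length in the RefSeq table. The match lies in the Tnfrsf19 window shown, from 202 bases before the start, as ATCAAAG on the strand of the gene. Tnfrsf19 has another annotated start, and Rnf43 has a pair, none of which held these letters. A missing match says only that the letters are not in this window. The Axin2 window was rich in G and C, at 69.2%, against 58.4% for Nkd1.

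The receptor ubiquitin ligases stood at similar levels in both knockout libraries. Rnf43, which removes Frizzled from the cell surface unless R-spondin and Lgr receptors hold it back, read 89.8 and 88.1 FPKM in control adenomas and 40.9 and 44.2 in knockout adenomas. The knockout libraries held 46.0% and 49.7% of the control mean and lay close together (log2 fold change -1.05, SE 0.158, n = 2 per group; limma adjusted p = 0.238). Its partner Znrf3 read 23.3 FPKM in each control and 9.39 and 10.3 in knockout adenomas, or 40.2% and 44.0% of the control mean. Its change on the log2 scale came to -1.17 with SE 0.153 (limma adjusted p = 0.235, n = 2 per group), and by unadjusted p it ranked 109 of 13716 rows, ahead of Rnf43 at 176, Nkd1 at 188 and Axin2 at 246.

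Rnf43 was the more abundant ligase per length in every library. The ratio of Rnf43 to Znrf3 was 3.85 and 3.77 in control adenomas and 4.36 and 4.301 in knockout adenomas, so Znrf3 made up a slightly smaller share of the pair in both knockouts. The receptor Lgr5, which acts with R-spondin on these ligases and marks crypt stem cells, lay on both sides of its control level: it read 32.1 and 32.7 FPKM in control adenomas and 26.5 and 37.7 in knockout adenomas, and the groups overlapped. The ratio of Rnf43 to Lgr5 was 2.80 and 2.69 in control adenomas and 1.55 and 1.17 in knockout adenomas, and that of Znrf3 to Lgr5 was 0.727 and 0.713 against 0.355 and 0.272.

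Kremen1, which binds Dickkopf proteins and clears the co-receptor Lrp6 from the surface, read 12.2 and 11.3 FPKM in control adenomas and 6.50 and 6.89 in knockout adenomas. The knockout libraries were nearly equal, at 55.5% and 58.7% of the control mean (log2 fold change -0.73, SE 0.157, n = 2 per group; limma adjusted p = 0.289). A separate row under the older symbol Kremen, which RefSeq gives as a synonym of Kremen1, was at most 0.210 FPKM and was not added. Its relative Kremen2 read 2.58 and 2.57 FPKM in control adenomas and 3.57 and 2.02 in knockout adenomas, on either side of the controls; it was named after its values were seen.

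Tnfrsf19, a receptor of the tumour necrosis factor family also called Troy that marks crypt stem cells, read 46.6 and 46.7 FPKM in control adenomas, 17.8 in knockout library 1 and 25.2 in knockout library 2. The groups did not overlap, and unlike Axin2 and Nkd1 it was lower in library 1, at 38.0% of the control mean against 54.0% in library 2. The change on the log2 scale came to -1.11 (SE 0.229, limma adjusted p = 0.279, n = 2 per group). Set against Lgr5 in the same library, the spread between knockout libraries was small: the ratio of Tnfrsf19 to Lgr5 was 1.45 and 1.43 in control adenomas and 0.671 and 0.668 in knockout adenomas.

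**Figure D3:**
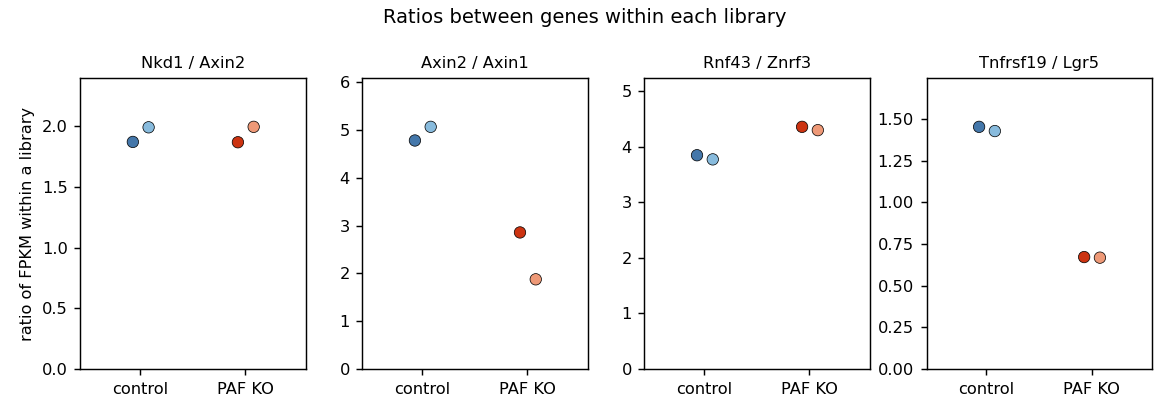
Ratio of FPKM between pairs of genes within each library, on linear axes that start at 0, 1 point per library (blue control, red PAF knockout; lighter points are replicate 2). Nkd1 to Axin2 is level across all 4 libraries at 1.87 to 1.997, Axin2 to Axin1 and Tnfrsf19 to Lgr5 are lower in both knockouts, and Rnf43 to Znrf3 is slightly higher.

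The order of levels per length changed between groups. In the controls it ran Nkd1, Axin2, Rnf43, Tnfrsf19, Axin1, Znrf3, Gsk3b, Apc, Kremen1 and Nkd2, and only Axin1 and Znrf3 could not be separated, since the value of Znrf3 lay at the lower Axin1 value. By the knockout means Rnf43 (42.5 ± 2.29 FPKM, SD, n = 2) stood ahead of Axin2 (36.4 ± 12.1), with overlapping values. Znrf3 (9.83 ± 0.625 FPKM, SD, n = 2) stood behind Gsk3b (15.3 ± 1.87) and Apc (14.1 ± 1.08) in the order, with no overlap. Gsk3b overlapped both Axin1 and Apc in knockout adenomas, and the higher Apc value lay at the lower Axin1 value, 14.9 FPKM.

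**Figure D4:**
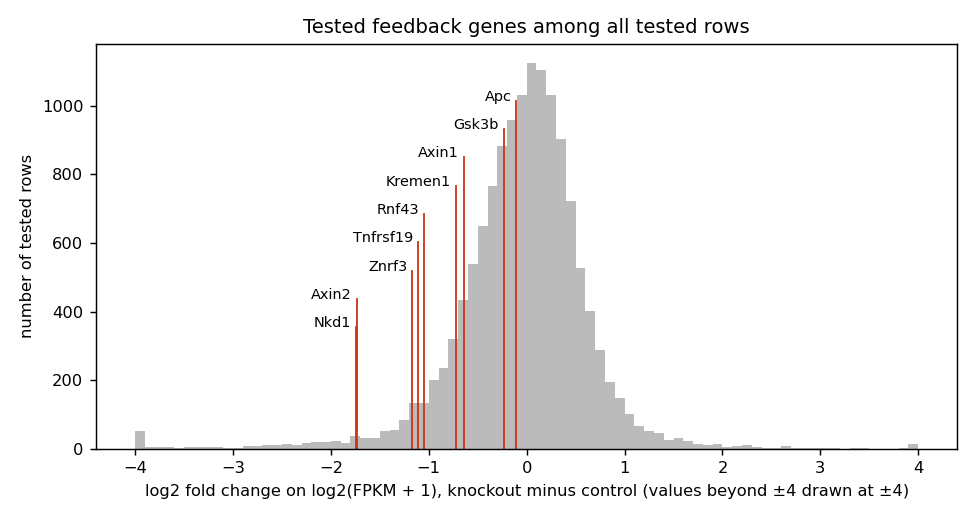
Histogram of the log2 fold change of all 13716 tested rows in bins of 0.1, with the 9 tested genes as red lines (line height only separates the labels). Axin2 and Nkd1 lie in the left tail, with under 2% of rows below them, while Apc and Gsk3b lie within the bulk.

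Partners of these genes were taken from lists of the pathway. Of 19 symbols listed as destruction complex partners 18 were in the table (Amer1 under its older symbol Fam123b) and 16 were tested; 0 were called by limma in either direction, 2 were lower and 0 higher at an unadjusted p under 0.05, beside 9.76% and 3.44% of all rows, and 7 were lower and 0 higher with no overlap, beside 30.2% and 21.5%. The median log2 fold change of the list was -0.21, and it was -0.073 without knockout library 1 and -0.32 without knockout library 2. The genes of smallest p were Dact2, a Dishevelled antagonist, at 21.2 and 20.0 FPKM in control adenomas and 9.73 and 9.18 in knockout adenomas (log2 fold change -1.05), and Csnk1e, a casein kinase of the pathway, at 53.1 and 50.7 against 28.6 and 20.8 FPKM (-1.06). The tankyrase Tnks2, which turns over Axin, had the largest p and read 43.9 and 41.5 against 32.5 and 57.6 FPKM. Beta-catenin itself, Ctnnb1, read 483 and 459 FPKM in control adenomas and 420 and 644 in knockout adenomas, on both sides of the controls.

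Of 21 receptor complex partners 15 were tested; 0 were called by limma, 4 were lower and 0 higher at an unadjusted p under 0.05 (9.76% and 3.44% of all rows), and 8 were lower and 1 higher with no overlap (30.2% and 21.5% of all rows). The median log2 fold change was -0.14, with -0.25 when knockout library 1 was left out and -0.26 when library 2 was. Dkk3, of the Dickkopf family, read 56.8 and 55.5 FPKM in control adenomas and 30.7 and 29.5 in knockout adenomas, and Dvl2, which encodes a Dishevelled, read 5.99 and 7.43 against 3.02 and 2.88 FPKM. The Wnt co-receptor Lrp6 read 12.04 and 11.99 FPKM in control adenomas and 9.68 and 14.2 in knockout adenomas, and the R-spondin receptor Lgr4 read 60.1 and 57.5 against 48.8 and 81.9. Lrp5 read 87.1 and 89.0 FPKM in control adenomas, 82.2 in knockout library 1 and 35.9 in knockout library 2, so its difference rested on the latter.

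Other intestinal beta-catenin targets gave a median log2 fold change of -0.66 over 19 of 20 genes tested. Limma called 0, while 9 were lower and 0 higher at an unadjusted p under 0.05 (9.76% and 3.44% of all rows) and 13 were lower and 2 higher with no overlap (30.2% and 21.5% of all rows). The Wnt inhibitors Wif1, which is secreted, and Apcdd1, which sits in the membrane, had the smallest p, with log2 fold changes of -2.21 and -1.48, and Rgmb the largest p (-0.12). The medians of the 9 feedback genes were -1.10 in knockout library 1 and -0.86 in library 2, beside -0.59 and -0.67 for these targets and -0.11 and 0.087 for all tested rows. The lists were chosen with earlier results of these libraries known, and their differences from the feedback genes were not tested.

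**Figure D5:**
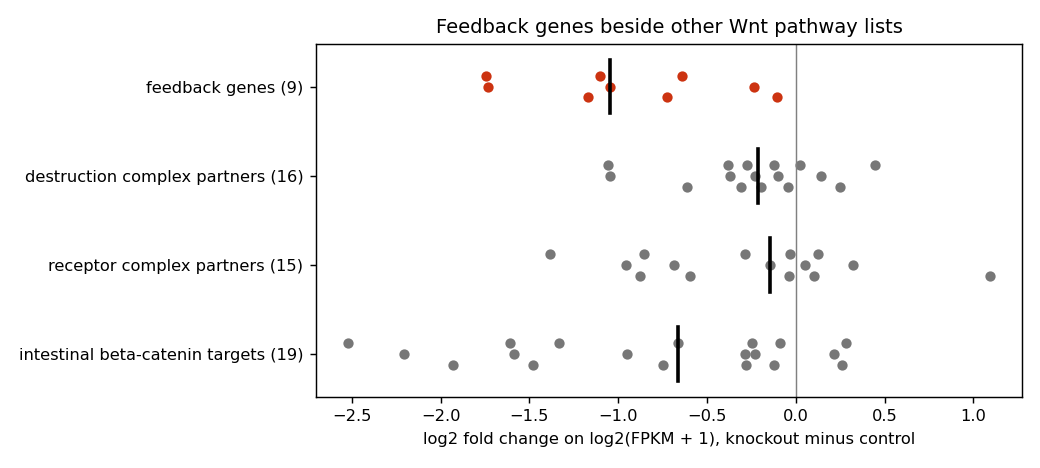
Limma log2 fold change of each tested gene (1 point per gene, vertical offset only for legibility) in the feedback genes and 3 pathway lists, with the number tested in brackets and the median as a black bar. The feedback genes have a median of -1.05, the partners of the destruction complex and receptors lie around medians of -0.21 and -0.14, and other targets range from -2.52 to 0.28.

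The rows whose profile lay nearest to that of Axin2 over the 4 libraries were Ecm1, an extracellular matrix protein, Gsdma, a gasdermin, and Pdlim4, a PDZ and LIM domain protein. Likeness was the Euclidean distance between log2(FPKM + 1) values taken relative to each gene's control mean, over 11457 candidate genes, and was 0.050, 0.057 and 0.076. Ecm1 read 112 and 113 FPKM in control adenomas and 42.3 and 25.6 in knockout adenomas, close to Axin2 in level too. With 4 libraries in 2 groups many genes can share such a profile.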

How the data were processed

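RNA was sequenced from 2 control and 2 PAF knockout adenoma libraries. The authors deposited 1 table of FPKM values, each library in its own column. The submitters' processing notes name Cuffdiff, TopHat2 and mm9; their versions and settings, and the annotation, were not given in the sources used here. Because FPKM carries a correction for depth and length, count tests were not used. Of 29955 rows, 84 repeated a symbol and the row of higher mean was kept. Testing covered rows whose mean reached 1 FPKM, using limma 3.58.1 (R version 4.3.3) with log2(FPKM + 1) values, a variance trend on mean expression and Benjamini-Hochberg adjustment. Fold changes on that scale understate low genes. The test was checked on simulated data whose changes were larger than those of the feedback genes, so the check does not cover changes of their size.

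Depth was estimated from genes with a single GENCODE transcript no shorter than 1000 bases, taking the commonest low product of FPKM and length as 1 fragment. The estimates were 13200000 and 17500000 for the controls and 15200000 and 24000000 for the knockouts, and, over the longest transcript of each gene, 480 to 957 fragments for Kremen1, the fewest among the tested feedback genes. The 10 genes and all lists were chosen with earlier results of these data known. Named genes were these 10, the PAF gene, in each pathway list the 2 of smallest and the 1 of largest p with Ctnnb1, Lrp5, Lrp6, Lgr4 and Lgr5, the 2 most abundant markers of each marker list, and the 3 rows nearest to Axin2. Outside this rule, Xist, Eif2s3y, Kremen, Kremen2, Anpep, Cdh1 and Cd68 were named after their values were seen. Alternatives were pseudocounts of 0.1 and 0.01, no filter or a filter at 5 FPKM, 3 scalings, no trend, a replicate block and leaving out each library.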

Additional observations from a re-analysis of the deposited data

How the results depend on the processing

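The 9 tested genes kept their direction in all 13 alternative settings, and the count of 9 lower in every knockout library held in each. Most of these settings could not have shown otherwise. With both knockout values below both controls, a pseudocount, filter, trend, replicate block or left-out library cannot reverse a gene or make the groups overlap. Only quantile scaling, median centring and epithelium centring could have done so, and under each the 9 genes stayed lower in every knockout library. Log2 fold changes ranged from -2.07 to -1.40 for Axin2, from -2.04 to -1.45 for Nkd1 and from -0.18 to -0.032 for Apc. No gene of the 9 was called in any setting except with a knockout library left out, where 7 were (0 to 7 over the libraries left out, limma); Apc and Gsk3b were not called there either. Over all rows the number called was 10, 4 with no filter, and 0 to 8397 with a library left out: 0 with a control library left out, 8397 with knockout library 1 left out and 2833 with knockout library 2 left out.

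The median log2 fold change of the receptor complex partners (-0.14) was -0.090 with no filter, -0.22 with a filter at 5 FPKM, -0.097 under quantile scaling, -0.087 under median centring, -0.17 centred on epithelium markers and -0.26 to -0.12 with a library left out. That of the beta-catenin targets (-0.66) was -0.47 with no filter and -0.67 to -0.59 with a library left out, and that of the destruction complex partners (-0.21) was -0.32 to -0.073 with a library left out. A filter changes which genes enter a list's median. Median or epithelium centring adds the same constant to every gene's log2 fold change. The causes of the other moves were not tested. Same-numbered libraries share only a number, since the labels name no common animal, litter or day, and their deviations had a correlation of -0.11 across rows; with the replicate block limma called 13 rows and 0 of the 9 genes. Depth limits the value of Nkd2 most among the 10 genes.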
